A study of Mus musculus with 12 samples.

Results

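Gas5, Snhg1, Snhg3, Snhg5, Snhg6, Snhg8 and Snhg12 are spliced noncoding RNAs whose introns carry small nucleolar RNAs (snoRNAs). These 7 rows were taken by gene symbol from a table of 24561 gene symbols, and all 7 were among the 12719 genes with enough counts to be tested. They were selected on the fold changes of cytosolic ribosomal protein genes, with which they share growth control, in the same comparison. There, 55 of 81 tested ribosomal protein genes passed the test as higher (9.17% of all genes did) and 1 as lower (8.82%) in the HET-labelled mice, with a median log2 fold change of 0.42. The differences of the 7 transcripts between the groups are therefore a description. Counts of those past the threshold of the fit over all genes stand beside the share of all genes past it, and nothing is read from them.

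The libraries were made from CXCR5hi PD-1hi T follicular helper (Tfh) cells, the T cells that help B cells in the follicle. OT-II T cells, which carry a T cell receptor against ovalbumin, were transferred into CD45.1 Sap-/- recipients whose own T cells lack the SAP adaptor. The recipients were immunized with NP-OVA and LPS in alum, and the Tfh cells were sorted from draining lymph nodes at day 3. Mice labelled HET received donor cells of genotype CD4-CrexBcl6fl/+, and mice labelled WT received CD4-Cre donor cells, all on C57BL/6, with 3 mice per group and 2 technical repeats of about 200 cells per mouse. Both groups thus carried the Cre transgene, which the CD4 promoter drives in T cells, and no floxed allele is given for the control. The number of donors and the ages of the mice were not given in the sources used here, so mice of a group may share a donor and the spread between them may be partly technical.

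Host genes of this class work through their introns. The spliced exons form an RNA with no long reading frame that is often removed by nonsense-mediated decay once ribosomes engage it, while trimmed introns yield box C/D snoRNAs, which guide ribose methylation of ribosomal RNA, or box H/ACA snoRNAs, which guide pseudouridylation. Many host transcripts begin with a C followed by a run of pyrimidines, the 5′ terminal oligopyrimidine (TOP) motif that they share with ribosomal protein mRNAs and through which growth signals control translation. Gas5 was named for its accumulation in growth-arrested cells, where reduced translation spares it from decay.

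In the GENCODE M21 annotation of GRCm38, the build of the alignments, the 7 genes held 29 snoRNA genes at 27 distinct positions, all within introns of the transcript with the most exons. Gas5 (chr1:161034422-161038539, plus strand) carried 9 positions between 12 exons. Snhg1 (chr19:8723475-8726443, plus strand) carried 8 between 10 exons. Snhg12 (chr4:132308623-132311024, plus strand) carried 4, and Snhg3 (chr4:132348014-132353686, minus strand) and Snhg5 (chr9:88521050-88522929, minus strand) carried 2 each. Snhg6 (chr1:9941959-9944118, minus strand) and Snhg8 (chr3:123507552-123508404, minus strand) carried 1 each. The exons of the most-exon transcript made up 5.9% to 52.5% of each gene, whereas the exons of all annotated transcripts together covered 17.4% (Snhg3) to 100% (Snhg1, Snhg8 and Snhg12). The most-exon Gas5 transcript was 502 bp long, or 12.2% of the gene, and that of Snhg3 was 332 bp, or 5.9%. Transcripts with retained introns were annotated for Gas5 (20 of 25), Snhg1 (14 of 18), Snhg5 (3 of 6) and Snhg8 (1 of 3), so reads from intronic sequence can be counted for these genes.

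**Figure D1:**
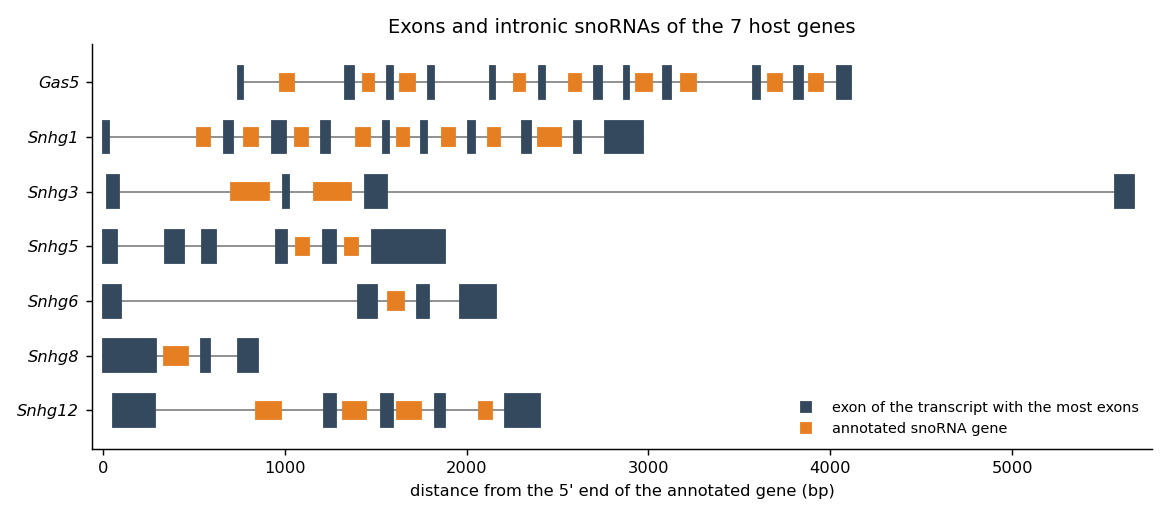
Exons (dark boxes) of the transcript with the most exons and annotated snoRNA genes (orange boxes) of the 7 hosts, drawn to scale by distance in bp from the 5′ end of the annotated gene. Gas5 and Snhg1 alternate short exons with a snoRNA in nearly every intron, and no snoRNA touches an exon.

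The start of each transcript is shown because it bears the motif that host transcripts share with ribosomal protein mRNAs. RefSeq promoter entries on GRCm38.p6 matched 6 of the 7 symbols, with a pair of starts for Gas5 and none for Snhg6. Each window runs 5′ to 3′ from 40 bases before the start to 20 bases after it. Capitals at or near the start mark a run of at least 5 pyrimidines that begins with C within 5 bases of the start, and capitals further upstream mark a TATA-like match (TATAAA on either strand, or TATATA, from 40 to 11 bases before the start).
Gas5 upstream start, chr1:161034561-161034621, plus strand: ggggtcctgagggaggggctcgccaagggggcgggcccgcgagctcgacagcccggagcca
Gas5 downstream start, chr1:161035126-161035186, plus strand: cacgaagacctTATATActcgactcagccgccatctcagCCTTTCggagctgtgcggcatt
Snhg1, chr19:8723447-8723507, plus strand: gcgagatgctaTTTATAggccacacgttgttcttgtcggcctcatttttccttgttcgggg
Snhg3, chr4:132353666-132353726, minus strand: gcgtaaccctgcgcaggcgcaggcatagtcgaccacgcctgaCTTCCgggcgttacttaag
Snhg5, chr9:88522877-88522937, minus strand: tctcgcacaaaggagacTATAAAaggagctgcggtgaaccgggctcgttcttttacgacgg
Snhg8, chr3:123508316-123508376, minus strand: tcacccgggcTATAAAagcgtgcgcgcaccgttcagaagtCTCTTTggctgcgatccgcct
Snhg12, chr4:132308638-132308698, plus strand: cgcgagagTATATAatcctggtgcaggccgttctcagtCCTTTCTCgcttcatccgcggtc

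The pyrimidine run was found for 4 of the 6 genes (Gas5 at its downstream start, Snhg3, Snhg8 and Snhg12). Over all 27025 genes with such a window the share was 21.2%, over 65 ribosomal protein genes 47.7%, and over 12 other noncoding snoRNA hosts 33.3%. A TATA-like match was found for 5 of the 6 (Gas5 at its downstream start, Snhg1, Snhg5, Snhg8 and Snhg12), beside 4.13% of all genes, 6.15% of ribosomal protein genes and 8.33% of the other hosts. This second motif was searched after the windows had been read. The E-box CACGTG, a palindrome and so the same on both strands, was in no 300-base window of the 6 genes and in such a window of 8.09% of all genes. These matches describe the letters only.

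A hosted snoRNA of each gene is shown to set the box elements beside the host. In the box C/D snoRNAs the capitals mark box C (TGATGA within the first 20 bases) and box D (CTGA within the last 15), and in the H/ACA snoRNAs they mark the ACA within the last 8 bases. All are given 5′ to 3′ on GRCm38.
Snord47 (Gas5), chr1:161038082-161038158, plus strand: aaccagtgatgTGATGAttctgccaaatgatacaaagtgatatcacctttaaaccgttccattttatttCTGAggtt
Gm22680 (Snhg1), chr19:8725341-8725409, plus strand: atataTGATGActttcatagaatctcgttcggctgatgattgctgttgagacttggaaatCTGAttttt
Snora73b (Snhg3), chr4:132352322-132352526, minus strand: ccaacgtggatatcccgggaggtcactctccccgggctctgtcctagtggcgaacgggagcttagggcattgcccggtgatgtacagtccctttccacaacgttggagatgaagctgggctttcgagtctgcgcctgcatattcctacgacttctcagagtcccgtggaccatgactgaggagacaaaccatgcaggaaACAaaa
Snord50a (Snhg5), chr9:88521529-88521600, minus strand: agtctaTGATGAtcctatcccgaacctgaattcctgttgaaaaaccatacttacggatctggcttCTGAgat
Snord87 (Snhg6), chr1:9942463-9942549, minus strand: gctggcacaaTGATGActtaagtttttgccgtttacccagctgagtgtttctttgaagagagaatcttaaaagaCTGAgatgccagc
Snora24 (Snhg8), chr3:123507937-123508066, minus strand: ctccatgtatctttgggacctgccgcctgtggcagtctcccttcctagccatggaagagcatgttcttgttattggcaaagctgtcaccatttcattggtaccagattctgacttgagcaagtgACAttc
Snora61 (Snhg12), chr4:132310240-132310369, plus strand: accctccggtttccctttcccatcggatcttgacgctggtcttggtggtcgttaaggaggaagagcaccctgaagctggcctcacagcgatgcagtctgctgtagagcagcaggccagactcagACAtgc

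By these letters, 17 of the 29 snoRNA genes had boxes C and D (58.6%), 7 had an ACA (24.1%), of which 1 had both, and 6 had neither. Over all 1507 annotated mouse snoRNA genes the shares were 20.2% for C and D and 46.8% for ACA. The hosts differed in what they carried. Gas5 (8 of 10), Snhg1 (5 of 8), Snhg5 (2 of 2) and Snhg6 (1 of 1) held C/D snoRNAs by this search, with 1 ACA match in Gas5 (Mir5117, which also has boxes C and D) and 0 in the others, whereas Snhg3 (2 of 2) and Snhg8 (1 of 1) held ACA matches alone. Snhg12 held both kinds, with 3 ACA and 1 C/D of 5. Snora16a of Snhg12 and Snord80 of Gas5 were each annotated more than once at overlapping positions, so these counts are of annotated genes and not of positions. Close copies occurred within a host. Snora73a and Snora73b of Snhg3 differed at 7 of 205 positions, and Snord50a and Snord50b of Snhg5 at 1 of 72.

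The libraries held 3343380 to 8315720 counts (HET label) and 5240720 to 7266110 counts (WT label). Bcl6, the targeted gene, went against the labels. The level, in CPM after TMM scaling of the libraries (normalized CPM), was 150, 146 and 150 in HET-labelled mice 1 to 3 and 54.8, 75.6 and 56.9 in WT-labelled mice 1 to 3, a log2 fold change of 1.25 ± 0.12 (SE, n = 3 mice per group). Groups are accordingly named by their labels, every direction below rests on those labels, and counts over a whole gene do not separate a floxed from an intact allele. The Tfh markers were present (10 of 10 tested), at 9282 to 9958 summed CPM under the HET label and 7080 to 8510 under the WT label. Most of the sum was Trac (means of 6870 and 4846 CPM), and the median log2 fold change of the 10 was -0.21. Of these, 2 passed as higher, Icos (0.64 ± 0.10) and Trac (0.55 ± 0.088), and 4 as lower, Tox2 (-0.80 ± 0.10), the sort markers Pdcd1 (-0.42 ± 0.098) and Cxcr5 (-0.40 ± 0.093), and Cd4 (-0.34 ± 0.12). Over all genes 9.17% passed as higher and 8.82% as lower. DESeq2 and limma-voom each called 5 of the 10 lower, beside 1237 of 12904 and 1370 of 11259 genes in all.

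The 7 host transcripts together took 588 to 636 CPM in the HET-labelled mice and 362 to 414 CPM in the WT-labelled mice. By mouse, Snhg6 overlapped between the groups, and the other hosts were higher in every HET-labelled mouse than in any WT-labelled mouse. In the test, 5 of 7 passed as higher (9.17% of all 12719 genes did) and 0 as lower (8.82% of all genes did). At an unadjusted p under 0.05 the edgeR counts were 6 and 0 (15.7% and 15.2% of all genes). DESeq2 and limma-voom each called 5 higher and 0 lower. Over all genes DESeq2 called 1187 of 12904 higher and 1237 lower, and limma-voom 1360 of 11259 higher and 1370 lower. In 6 of 7 every HET-labelled mouse lay above every WT-labelled mouse (17.4% of all genes did), and in 0 of 7 below (17.0% of all genes did). The median log2 fold change of the 7 was 0.71, against 0.01 for all genes tested. In RNA from sorted cell pools, fewer cells that express a transcript and less of it per cell cannot be told apart.

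Gas5, the most abundant of the 7, had 353, 352 and 378 normalized CPM in HET-labelled mice 1 to 3. It had 199, 242 and 223 in WT-labelled mice 1 to 3. All HET-labelled values lay above all WT-labelled ones, by library (lowest 324, highest 262) as well as by mouse. The means were 361 ± 14.9 and 221 ± 21.5 (SD, n = 3 mice each), and the log2 fold change was 0.71 ± 0.096 (SE). Between 2172 and 4850 reads per mouse stood behind these values. The 5′ end of the annotated Gas5 gene overlaps that of Zbtb37, a zinc finger gene on the other strand, in no exon. Zbtb37 had 7.498, 8.57 and 4.63 against 5.13, 5.96 and 6.38 normalized CPM, overlapping groups, and a log2 fold change of 0.25 ± 0.32 (SE).

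Snhg1, with mostly C/D snoRNAs in its introns, had 40.9, 41.0 and 46.0 normalized CPM in the HET-labelled mice. In the WT-labelled mice it had 21.2, 27.9 and 21.9. The groups did not overlap, and the log2 fold change was 0.85 ± 0.16 (SE). Its start lies 106 bp from that of Slc3a2, which encodes the CD98 heavy chain and is read from the opposite strand. Slc3a2 did not share the pattern, with 72.3, 79.6 and 77.0 normalized CPM under the HET label, 82.7, 74.7 and 72.8 under the WT label, and a log2 fold change of -0.01 ± 0.11 (SE).

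Snhg3, the host of the Snora73 pair, which acts in ribosomal RNA processing, had 34.8, 39.96 and 47.0 normalized CPM in the HET-labelled mice. It had 19.6, 27.6 and 21.02 in the WT-labelled mice. HET-labelled mouse 1 and WT-labelled mouse 2 were the nearest across the groups and did not meet, and the log2 fold change was 0.83 ± 0.17 (SE). Snhg3 overlaps the 5′ part of Rcc1, the nucleotide exchange factor of Ran, on the same strand. It starts 81 bp upstream of Rcc1, with 135 bp of shared exon. The noncoding Gm17300 lies antisense to it with 705 bp of shared exon. Rcc1 passed the test in the other direction (50.4, 59.4 and 74.8 against 103, 94.0 and 110 normalized CPM, log2 fold change -0.74 ± 0.13), and Gm17300 passed in the same direction (65.8, 74.1 and 88.5 against 41.8, 38.7 and 38.4 normalized CPM, log2 fold change 0.94 ± 0.13). The strand setting of the counting was not given in the sources used here, so reads of Snhg3 and Gm17300 cannot be told apart in the shared part.

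Of the 29 hosted snoRNA genes, 3 had a row in the count table, and Snora73b, whose sequence is given above, was the one with more than a few reads. It had 205, 137 and 155 reads in the HET-labelled mice and 106, 101 and 107 in the WT-labelled mice. That corresponded to 14.9, 11.98 and 15.9 against 9.71, 8.98 and 8.03 normalized CPM, a log2 fold change of 0.68 ± 0.24 (SE), with no overlap. Mature snoRNAs carry no poly(A) tail and the library was made from poly(A) RNA, and Snora73b also lies in the span of Rcc1, so these reads cannot be assigned to one precursor. Snora73a had 24 reads and Snord87 had 18 over all 12 libraries and neither was tested.

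Snhg5, which hosts the Snord50 pair, had 63.3, 60.5 and 70.4 normalized CPM in the HET-labelled mice. It had 39.6, 38.0 and 32.7 in the WT-labelled mice. The groups did not overlap by mouse or by library, and the log2 fold change was 0.82 ± 0.13 (SE). Snhg8, with a single H/ACA snoRNA, had 74.0, 56.1 and 67.1 under the HET label. It had 38.9, 38.8 and 45.0 under the WT label. Its groups did not overlap either, although the lowest HET-labelled library (51.5) came close to the highest WT-labelled one (47.0), and the log2 fold change was 0.68 ± 0.14 (SE).

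Snhg12, the least abundant, had 11.6, 10.4 and 11.7 normalized CPM in the HET-labelled mice. It had 7.51, 6.58 and 6.53 in the WT-labelled mice. The mice did not overlap and the log2 fold change was 0.71 ± 0.26 (SE), but it missed the threshold of the test. Only 74 to 159 reads per mouse stood behind it, and by library the groups overlapped, since repeat 2 of HET-labelled mouse 2 (7.27) and repeat 1 of HET-labelled mouse 3 (7.44) fell below the highest WT-labelled library (7.99). It passed under upper-quartile scaling, with at least 10 counts in every library, on log2(TPM + 1) and log2(TPM + 0.1), and without the shallowest library.

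Snhg6 stood apart from the other 6. It had 30.3, 29.7 and 39.4 normalized CPM in the HET-labelled mice and 25.8, 36.7 and 39.5 in the WT-labelled mice. The highest mouse of each group was at nearly the same level, WT-labelled mouse 1 was the lowest of all, and the log2 fold change was -0.04 ± 0.18 (SE). Its sign depended on which mice were used, from -0.21 without WT-labelled mouse 1 to 0.074 without WT-labelled mouse 3. The last exon of Snhg6 overlaps 127 bp of exon of Mcmdc2, a meiotic recombination gene on the other strand. Mcmdc2 had 14 to 48 reads per mouse and a log2 fold change of -0.55 ± 0.59 (SE).

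**Figure D2:**
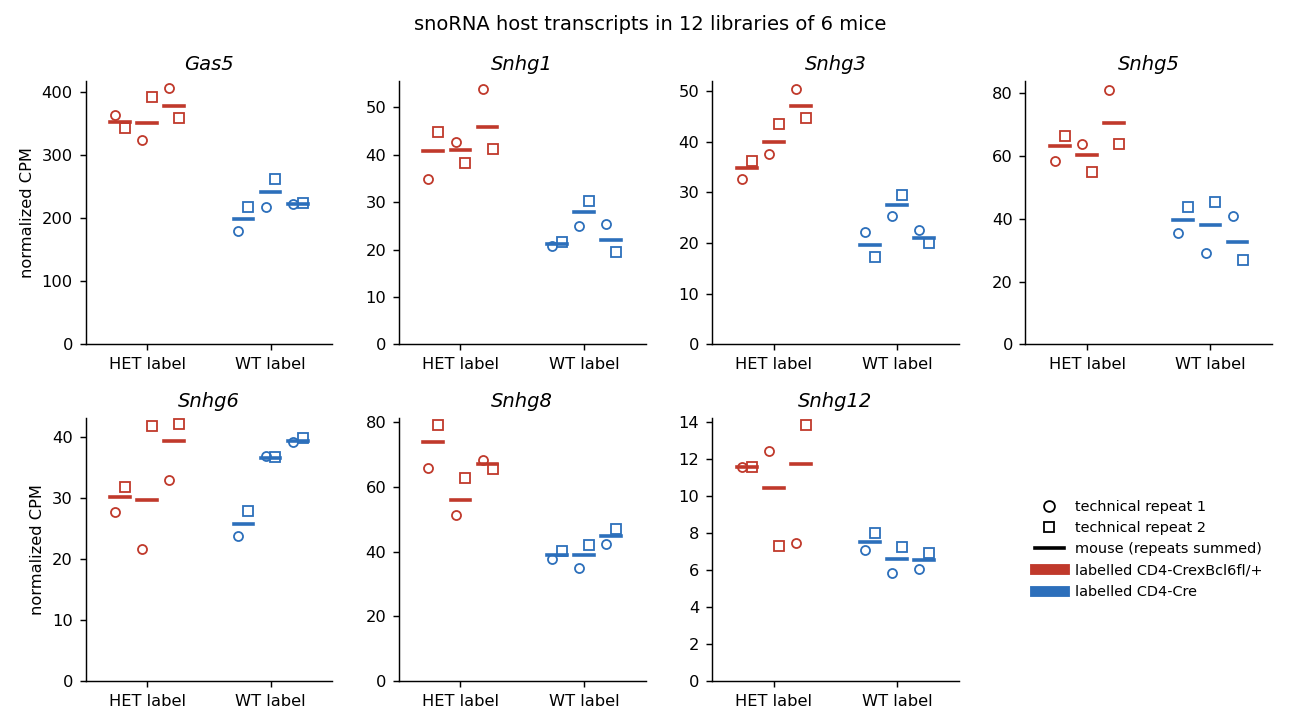
Normalized CPM of each host transcript in the 12 libraries (circles, technical repeat 1; squares, technical repeat 2) and in the 6 mice (bars, repeats summed), each panel from 0. HET-labelled mice (red) lie above WT-labelled mice (blue) in every panel but that of Snhg6, where mice range from 25.8 to 39.5 in both groups together.

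Technical repeats of a mouse show the noise of a library of about 200 cells without touching the comparison. The median absolute log2 difference between repeats was 0.19 for Snhg3, 0.20 for Snhg8, 0.21 for Snhg6, 0.22 for Gas5, 0.24 for Snhg12, 0.32 for Snhg1 and 0.32 for Snhg5. The 500 tested genes nearest in mean count gave a median of 0.28 for Snhg3, 0.21 for Snhg8, 0.27 for Snhg6, 0.14 for Gas5, 0.46 for Snhg12, 0.27 for Snhg1 and 0.22 for Snhg5. The values of Gas5, Snhg1 and Snhg5 were above those of genes of like count, and the values of Snhg3, Snhg6, Snhg8 and Snhg12 were below. The largest gaps were 0.93 for Snhg6 in HET-labelled mouse 2, 0.85 for Snhg12 in HET-labelled mouse 3 and 0.74 for Snhg12 in HET-labelled mouse 2.

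Levels were compared between the transcripts per kb of annotated exon, within each mouse and over both groups. Of the 986 bp of Snhg3 exon, 705 bp are shared with Gm17300 and 135 bp with Rcc1. How reads in shared exon were counted was not given, so the level of Snhg3 per kb and its comparisons carry this limit. Over the 6 mice the mean was 77.4 CPM per kb for Gas5 (52.9 to 101), 62.5 for Snhg8 (45.5 to 86.8), 32.1 for Snhg3 (19.9 to 47.6), 29.3 for Snhg6 (22.5 to 34.5), 29.3 for Snhg5 (18.9 to 40.7), 11.2 for Snhg1 (7.12 to 15.5) and 3.77 for Snhg12 (2.72 to 4.88). The neighbours in the order of mean log2 level were compared within mice by a two-sided exact sign-flip permutation test over 6 mice, with p adjusted over 6 pairs. Gas5 exceeded Snhg8 by 0.31 ± 0.17 on the log2 scale (SD), Snhg8 exceeded Snhg3 by 0.99 ± 0.31, Snhg5 exceeded Snhg1 by 1.40 ± 0.15 and Snhg1 exceeded Snhg12 by 1.54 ± 0.21, each in 6 of 6 mice (exact p = 0.0313, the smallest that 64 arrangements allow, adjusted p = 0.0469).

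Per kb of annotated exon, the order of Snhg3, Snhg6 and Snhg5 differed between the labels, which restates their log2 fold changes (0.83, -0.04 and 0.82). Snhg3 was above Snhg6 in 3 of 3 HET-labelled mice (35.3, 40.5 and 47.6 against 26.4, 25.9 and 34.4 CPM per kb) and in 0 of 3 WT-labelled mice (19.9, 27.9 and 21.3 against 22.5, 32.03 and 34.5 CPM per kb). Snhg5 was above Snhg6 in 3 of 3 HET-labelled and 1 of 3 WT-labelled mice. Over both groups, Snhg3 and Snhg6 differed by 0.08 ± 0.52 on the log2 scale (SD), ranging from -0.69 to 0.64 over the 6 mice (exact adjusted p = 0.863). Snhg6 and Snhg5 differed by 0.04 ± 0.55, ranging from -0.47 to 0.87 (exact adjusted p = 0.875). The order also depended on the length used. Per kb of the most-exon transcript, which leaves out retained introns, Gas5 had 580 CPM per kb and the other hosts had 14.9 to 119, in the same order. In the deposited TPM, Snhg6 (mean 59.7 TPM) lay above Snhg3 (41.2 TPM) under both labels, by 0.58 on the log2 scale (exact adjusted p = 0.0469). There Snhg1 (58.1 TPM) lay beside Snhg5 (54.8 TPM). Gas5 (345 TPM) and Snhg8 (197 TPM) led and Snhg12 (13.1 TPM) was last on every scale.

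**Figure D3:**
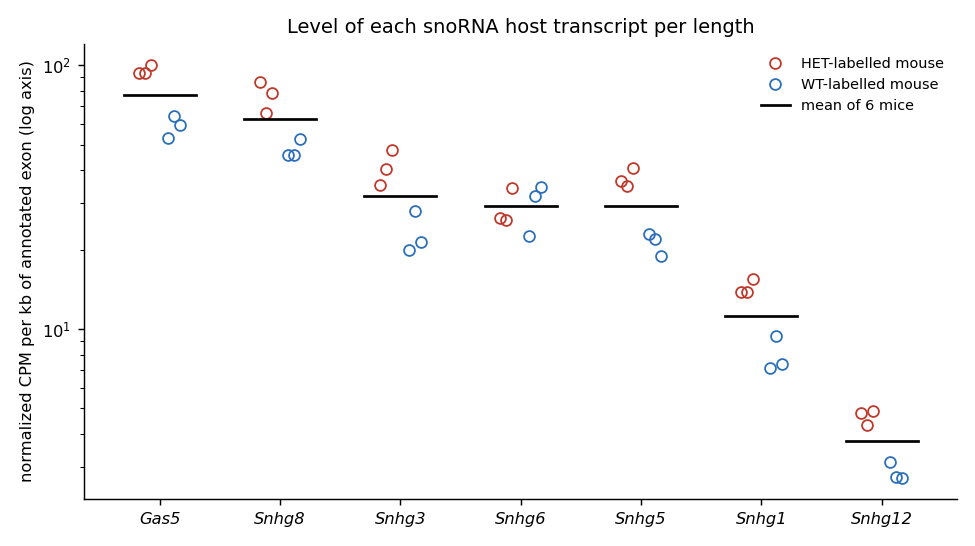
Normalized CPM per kb of annotated exon (log axis) in the 6 mice, ordered by the mean log2 level over mice (black lines, means of the plotted values), with HET-labelled mice in red and WT-labelled mice in blue. Gas5 (77.4) and Snhg8 (62.5) lead, Snhg3, Snhg6 and Snhg5 lie between 29.3 and 32.1, and Snhg12 (3.77) is lowest. Much of the Snhg3 exon length is shared with other genes.

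Other noncoding snoRNA hosts also had values above 0, and some of them passed the test. Of 14 listed, 12 were in the table, 10 were tested, 5 passed as higher (9.17% of all genes did) and 0 as lower (8.82%), and all 10 had a log2 fold change above 0 (0.31 to 1.89, median 0.82). The edgeR counts at an unadjusted p under 0.05 were 8 and 0 (15.7% and 15.2% of all genes). DESeq2 and limma-voom each called 5 and 0, beside 1187 of 12904 and 1360 of 11259 genes in all as higher. Leaving out single mice moved the count of calls to between 1 and 4, with 1 without WT-labelled mouse 1 and 2 without WT-labelled mouse 2 or 3 or HET-labelled mouse 3. Dancr was the most raised of those that passed, with 6.04, 5.16 and 10.1 normalized CPM under the HET label, 2.75, 3.56 and 3.15 under the WT label, and a log2 fold change of 1.16 ± 0.37 (SE). Zfas1, which hosts the Snord12 family and is the most abundant of this list, had 52.2, 69.1 and 69.4 against 32.9, 34.1 and 37.9 normalized CPM (0.86 ± 0.14). Snhg14, the host of the imprinted snoRNA clusters at the Prader-Willi locus, had the highest value (1.89 ± 0.70) at 0.27 to 2.48 normalized CPM and did not pass. This list was written with earlier results of these data known.

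**Figure D4:**
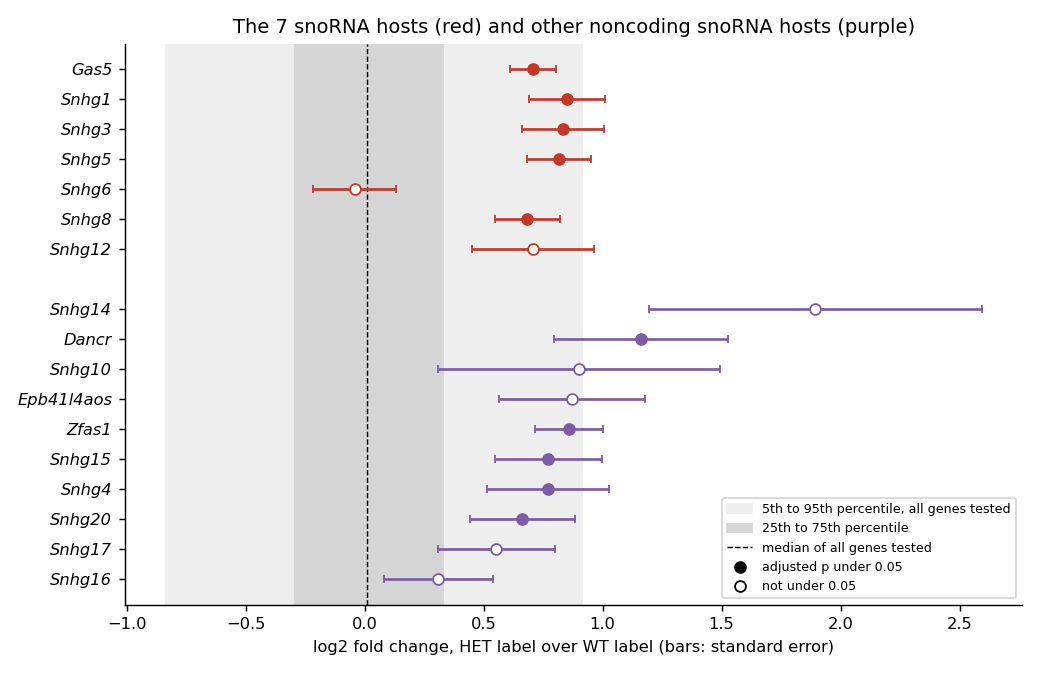
Log2 fold change of HET-labelled over WT-labelled mice (points, with standard errors as bars) for the 7 hosts (red) and 10 other noncoding snoRNA hosts (purple). Filled points passed the test, and grey bands give the middle ranges of all 12719 genes. Apart from Snhg6 (-0.04), all points lie right of the median of all genes (0.01).

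Proteins of the snoRNA particles did not share one direction. Of 8 core proteins, Nop10 (0.59 ± 0.11), an H/ACA subunit, and Nop56 (0.33 ± 0.10), a C/D subunit, passed as higher. Gar1 (-0.49 ± 0.15), an H/ACA subunit, and fibrillarin, Fbl (-0.33 ± 0.11), the C/D methyltransferase, passed as lower, and the median was 0.07. Of 11 particle assembly factors, 0 passed in either direction by the main edgeR fit, DESeq2 or limma-voom. At an unadjusted p under 0.05, 1 was higher and 1 lower, and the median was -0.02. In edgeR, 1 passed under upper-quartile scaling, with at least 10 counts in every library and with technical repeat 1 alone. Each of the 8 and 11 genes was tested, and 9.17% and 8.82% of all genes passed as higher and lower. The 4 calls among the core proteins fell to 1 without WT-labelled mouse 1, to 2 without WT-labelled mouse 2 or 3 or HET-labelled mouse 1 or 3, and to 0 with technical repeat 1 alone.

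Decay factors and growth regulators were next compared because they act on such host transcripts. Among 15 nonsense-mediated decay factors, 2 passed as higher, Upf2 (0.56 ± 0.17) and Magoh (0.35 ± 0.10), and 0 as lower by edgeR, with 2 lower at an unadjusted p under 0.05 and 1 lower by DESeq2 and by limma-voom. The count of calls was 0 without HET-labelled mouse 2, WT-labelled mouse 1 or WT-labelled mouse 3 and 1 without HET-labelled mouse 1, and the median was 0.09. Of 18 tested regulators of TOP translation and growth, 2 passed as higher, Larp1 (0.97 ± 0.16), which binds the TOP motif, and Eif4ebp2 (0.41 ± 0.10), which restrains cap-dependent translation. Another 2 passed as lower, Max (-0.53 ± 0.15), the partner of Myc, and Maf1 (-0.36 ± 0.12), a repressor of RNA polymerase III, and the median was 0.13. The 4 calls went to 1 with technical repeat 1 alone and 2 with repeat 2 alone. The median ran from -0.036 (log2(TPM + 0.1)) to 0.16 (upper-quartile scaling), and was 0.018 without HET-labelled mouse 1. In both lists the calls stand beside 9.17% of all genes passing as higher and 8.82% as lower (15.7% and 15.2% at an unadjusted p under 0.05). DESeq2 called 1237 of 12904 genes lower, and limma-voom 1370 of 11259. Myc itself had 0.16 ± 0.22 and did not pass.

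The genes whose profile over the 6 mice was most like the mean of the 7 hosts were Atp5k, Sltm, Rpp21, Rps27rt and Rpl22. Likeness was the root mean square difference of log2 CPM, each gene centred on its own mean, and it was 0.029 for Atp5k, 0.031 for Sltm, 0.031 for Rpp21, 0.033 for Rps27rt and 0.035 for Rpl22. Atp5k encodes an ATP synthase subunit, Sltm a nuclear RNA-binding protein, Rpp21 a subunit of RNase P and Rpl22 a ribosomal protein. Rps27rt is a retrogene of a ribosomal protein gene whose reads may be shared with its parent. Among the hosts themselves the difference from their mean was 0.053 for Gas5, 0.12 to 0.16 for Snhg12, Snhg1, Snhg5, Snhg8 and Snhg3, and 0.37 for Snhg6. The mean profile follows the labels (0.29, 0.23 and 0.45 against -0.42, -0.22 and -0.33). The hosts were chosen because ribosomal protein genes differed in that comparison, so ribosomal protein genes near the profile are a description only.

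Several library properties moved with the labels, and their part in the host values was not tested. Ribosomal protein genes took 10.1% to 11.8% of counts in HET-labelled mice and 8.54% to 9.33% in WT-labelled mice, and mitochondrially encoded genes 2.31% to 2.76% against 1.81% to 2.33%. Summed B cell markers (505 to 704 against 621 to 868 CPM, 8 of 8 in the table, mostly Ighm) overlapped, and 0 of 6 tested passed by edgeR, with 0 higher and 1 lower at an unadjusted p under 0.05 and 1 lower by DESeq2 and by limma-voom. Myeloid markers were higher under the HET label (14.9 to 26.9 against 7.45 to 10.5 CPM, 5 of 6 in the table). Of 3 tested, Lyz2 passed as higher by edgeR, with 1 called by limma-voom and 0 by DESeq2, Csf1r (0.77 ± 0.29) and Cd68 (-0.21 ± 0.51) did not pass, and Cd14 was at 0 in every mouse. The calls in these lists stand beside 9.17% of all genes passing as higher and 8.82% as lower (15.7% and 15.2% at an unadjusted p under 0.05). DESeq2 called 1187 of 12904 genes higher and 1237 lower, and limma-voom 1360 of 11259 higher and 1370 lower. CD8 markers were at 20.3 to 31.3 against 27.2 to 39.4 CPM, nearly all Cd8b1, and erythroid markers were at or below 0.882 CPM.

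**Figure D5:**
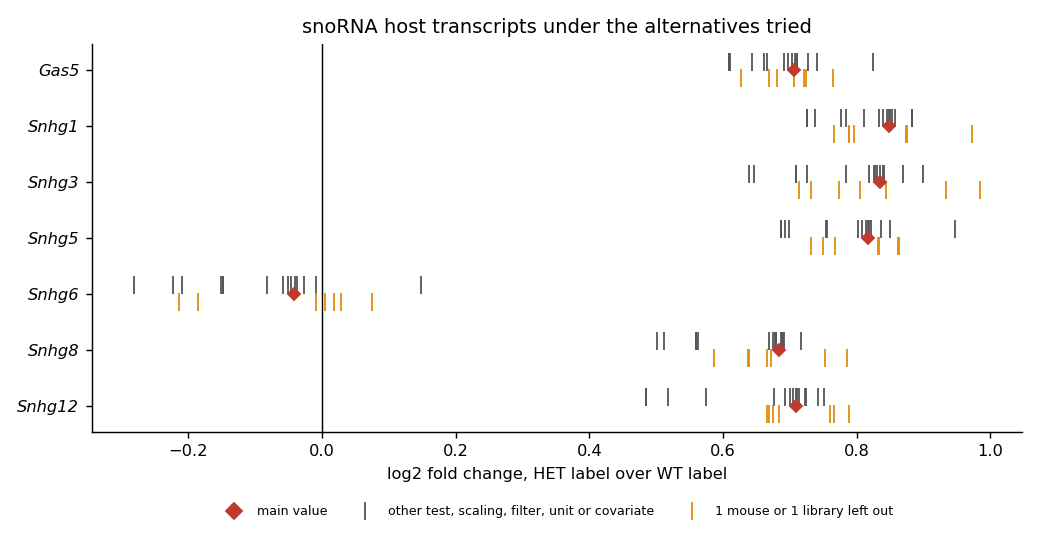
Log2 fold change of each host under the alternatives tried (grey ticks, other tests, scalings, filters, units and covariates; orange ticks, 1 mouse or 1 library left out) beside the main value (red diamond). Values of 6 hosts stay between 0.48 and 0.98, while those of Snhg6 fall on both sides of 0, from -0.28 to 0.15.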

How the data were processed

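SMART-Seq2 poly(A) RNA libraries of about 200 cells were sequenced on Illumina instruments. The authors checked reads with FastQC, aligned them to GRCm38 (mm10) with HISAT2 2.2.1, sorted them with Samtools and counted them per gene with HTSeq-count. The annotation release and strand setting were not given in the sources used here. The deposited count table held whole-number counts, not normalized. The deposited TPM table held the authors' TPM per library, whose implied gene lengths followed the gene span (Spearman 0.95 over 8180 genes) more than the exon length (0.60), a description across genes.

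Technical repeats were summed per mouse and both groups fitted with edgeR 4.0.16 (R 4.3.3): filterByExpr, TMM, quasi-likelihood test, Benjamini-Hochberg over 12719 genes, calls at an adjusted p under 0.05. The standard error was the log2 fold change over the square root of F. DESeq2 1.42.0 and limma 3.58.1 were alternatives. The fits were tested on counts simulated from the edgeR dispersions, where DESeq2 and limma-voom called more unchanged genes than edgeR did. The simulated repeats for limma-voom were random splits of a mouse without added library noise. That setting differs from the data, so it does not rank the tools here. Exon lengths and positions came from GENCODE M21. The 7 members, the gene lists and the tests were chosen with earlier results of these data known. Named genes were the 7 hosts, Bcl6, the most raised and lowered called gene of each list (values for at most 2 called genes a list and direction), genes overlapping a host or starting within 2 kb of its start, and the 5 genes nearest in profile. Snhg14, Myc and the marker genes beyond these were named after their values were seen.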

Additional observations from a re-analysis of the deposited data

Results flagged for a closer look

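In each group of 6 libraries, 7 host transcripts and 7 library measures were checked for a library far from the others, 28 checks in all, of which chance alone gives about 1 in 20. None of the 7 hosts had such a library in either group. Repeat 2 of WT-labelled mouse 3 had 16249 detected genes, against a median of 15534 in the other WT-labelled libraries. Repeat 1 of WT-labelled mouse 2 had 22.3% of counts on ribosomal RNA genes, against a median of 16.2%, and 20.9% on the single ribosomal RNA gene CT010467.1, against 15.05%. The 7 hosts summed to 355 CPM in that library and to 336 to 466 CPM over the 6 WT-labelled libraries. Without WT-labelled mouse 2 or without WT-labelled mouse 3, 5 hosts passed as higher in each fit, beside 891 of 13225 and 730 of 13222 genes in all.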

How the results depend on the processing

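Gas5, Snhg1, Snhg3, Snhg5 and Snhg8 kept their direction in 22 of 22 alternatives and passed in 21 of 22. The exception was log2(TPM + 1) over all 24530 genes, where 70 genes and 0 hosts passed by limma and the values were 0.61, 0.73, 0.71, 0.69 and 0.56. The count of called genes went from 2288 to 1059 (technical repeat 1 alone), 1446 (repeat 2 alone), and, by limma in place of edgeR, 1305 (log2(TPM + 1)) and 1260 (log2(TPM + 0.1)), and leaving out single mice to between 1424 (without WT-labelled mouse 3) and 1972. On log2(TPM + 1) 390 of the 1305 were higher and 915 lower, beside 1166 and 1122 of 2288, and with log2(TPM + 0.1) the median of all genes was -0.11. Snhg12 passed at 0.74 (upper-quartile scaling), 0.71 (at least 10 counts in every library), 0.48 (log2(TPM + 1)), 0.52 (log2(TPM + 0.1)) and 0.79 (without repeat 1 of HET-labelled mouse 3, chosen after seeing the data). Snhg6, which passed nowhere, was at 0.15 with technical repeat 2 alone and at -0.21 to 0.074 with single mice left out. Per length, Snhg3 over Snhg6 was -0.58 with the TPM-implied length and with the deposited TPM, and Snhg5 over Snhg1 was -0.080 and -0.078. With single mice left out, Snhg3 over Snhg6 ran from -0.036 to 0.23 and Snhg6 over Snhg5 from -0.12 to 0.14. The cause of these shifts was not tested. Same-numbered mice deviated with correlations of 0.10, -0.03 and 0.04, and mice of different number with -0.10 to 0.066. With 3 mice per group these values cannot settle whether the numbers pair the mice. The replicate block gave 2579 calls, with 5 hosts higher, beside 1292 of 12719 genes in all. Removing GC and length trends (values for 99.2% of genes) left 5 hosts higher, beside 1039 of 12617 genes in all. Reads per mouse were 74 to 159 for Snhg12 and 101 to 205 for Snora73b.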
